A study of Mus musculus with 28 samples.

Results

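Peaks from chromatin immunoprecipitation of Ty1-tagged MOZ-TIF2 that were narrow in replicate 1, overlapped a replicate 2 peak and lay away from the ends of genes are described here. A peak of the first replicate was taken when a peak of the second replicate overlapped it by at least 1 bp, when it was under 1500 bp wide, and when it lay more than 1 kb from the start and the end of every gene in the RefSeq annotation of GRCm38. Of 3676 peaks in replicate 1, 360 met these limits, and 4564 peaks were listed for replicate 2. A gene span runs from the outermost start to the outermost end of any transcript of a gene, and 313 of the 360 peaks lay within such a span while 47 lay between genes. No measured signal entered the choice apart from peak positions and widths.

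The series examined mouse leukaemia models and comprises 28 samples. c-Kit+ stem and progenitor cells of C57Bl/6 bone marrow were transduced by retrovirus with Ty1.MOZ-TIF2, sorted for GFP and replated serially in methylcellulose before chromatin immunoprecipitation against the Ty1 tag. Bulk poly(A) RNA came from 3 groups of 2 libraries each: cells with Ty1.MOZ-TIF2 after 4 days in medium with cytokines, c-Kit+ cells that were freshly isolated and carried no virus, and c-Kit+ cells that carried the empty vector and were cultured for the same 4 days, called differentiated by the submitters. The bound cells and the bulk RNA cells therefore differed in culture, and fresh cells differed from both other groups in transduction, sorting and culture as well as in the oncogene. The labels do not say whether replicates came from separate cultures or animals, so p-values measure only the spread between these libraries, which may be technical.

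MOZ-TIF2 joins the N-terminal part of the histone acetyltransferase MOZ (KAT6A) to the C-terminal part of the nuclear receptor coactivator TIF2 (NCOA2), which recruits the acetyltransferases CBP and p300. The fusion arises in acute myeloid leukaemia and gives myeloid progenitors the ability to renew themselves. Many mammalian genes have several promoters, and those that lie in CpG islands, where the CG dinucleotide has been retained, are often active in many tissues. An annotated gene span reaches to its most distant promoter, so a promoter in regular use may lie far inside it.

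The label of the replicate 2 list needs a caution. Both lists are labelled as MOZ-TIF2 immunoprecipitation, but the catalogue number given for the replicate 2 antibody is the same as that of the acetylated histone H3 samples and differs from that of replicate 1. Which antibody produced the second list cannot be told from the labels. Without the requirement for a replicate 2 peak, 406 replicate 1 peaks met the limits of width and distance.

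Sequences are shown for 4 genes whose peak lies at a transcript start inside the gene span, taken in order of peak width among genes named for a change in expression or as members of the lists of regulators, where the start window overlaps the peak, because most of the peaks lay at transcript starts inside genes. Each sequence is the RefSeq GRCm38 window from 250 bases before to 50 bases after the start, read 5′ to 3′ on the strand of the gene, with every CG dinucleotide in capitals. The second Stat5b window is a start of the same gene without a peak in either replicate, and was chosen after its values were seen. Chst15 (chr7:132316977-132317276, minus strand) encodes a chondroitin sulfotransferase, and 175 bases of its window lie in the replicate 1 peak. Ripor1 (chr8:105604979-105605278, plus strand) is shown second, and 27 bases of its window lie in the peak. Stat5b (chr11:100850532-100850831, minus strand) encodes a transcription factor activated by cytokine receptors, and 70 bases lie in the peak. Enah (chr1:182019931-182020230, minus strand) encodes an actin regulator, and 121 bases lie in the peak. The peak-free Stat5b start (chr11:100822521-100822820, minus strand) lies 28011 bp from the bound one.
Chst15: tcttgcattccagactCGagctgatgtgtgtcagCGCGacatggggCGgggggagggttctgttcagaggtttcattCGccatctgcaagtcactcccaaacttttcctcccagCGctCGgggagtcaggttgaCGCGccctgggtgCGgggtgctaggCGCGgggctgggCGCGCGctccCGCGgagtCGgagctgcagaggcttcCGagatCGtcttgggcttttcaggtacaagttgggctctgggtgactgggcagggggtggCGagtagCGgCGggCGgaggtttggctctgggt
Ripor1: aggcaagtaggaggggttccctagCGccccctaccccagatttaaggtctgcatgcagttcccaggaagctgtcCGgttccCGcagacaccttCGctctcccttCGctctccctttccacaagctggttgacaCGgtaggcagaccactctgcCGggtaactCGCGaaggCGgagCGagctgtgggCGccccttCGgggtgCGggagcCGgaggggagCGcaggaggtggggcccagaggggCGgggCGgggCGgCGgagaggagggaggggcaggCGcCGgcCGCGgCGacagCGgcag
Stat5b: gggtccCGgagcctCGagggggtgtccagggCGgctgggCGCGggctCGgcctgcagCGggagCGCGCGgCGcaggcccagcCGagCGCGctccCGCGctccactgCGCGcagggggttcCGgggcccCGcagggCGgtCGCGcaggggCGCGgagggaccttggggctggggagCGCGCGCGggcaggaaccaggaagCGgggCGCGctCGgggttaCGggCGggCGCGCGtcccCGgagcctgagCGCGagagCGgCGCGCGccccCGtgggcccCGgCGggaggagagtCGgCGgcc
Enah: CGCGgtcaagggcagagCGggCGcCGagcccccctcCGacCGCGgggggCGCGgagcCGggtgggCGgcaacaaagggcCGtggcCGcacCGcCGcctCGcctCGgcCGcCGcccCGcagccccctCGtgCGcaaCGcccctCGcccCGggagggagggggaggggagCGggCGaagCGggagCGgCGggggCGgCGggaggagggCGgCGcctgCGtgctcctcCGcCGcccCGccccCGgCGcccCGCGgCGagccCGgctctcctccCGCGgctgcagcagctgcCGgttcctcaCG
Stat5b start without a peak: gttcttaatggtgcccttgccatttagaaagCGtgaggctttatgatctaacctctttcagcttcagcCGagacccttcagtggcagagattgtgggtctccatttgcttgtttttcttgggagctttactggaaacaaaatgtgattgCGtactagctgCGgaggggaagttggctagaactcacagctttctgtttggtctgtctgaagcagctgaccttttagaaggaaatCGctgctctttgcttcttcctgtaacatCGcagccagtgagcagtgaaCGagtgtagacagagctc

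The bound Stat5b window holds 50 CG dinucleotides and the peak-free Stat5b window holds 7. The Enah, Ripor1 and Chst15 windows hold 49, 26 and 24. The C+G content is 82.7% in the bound Stat5b window, 83.3% in Enah, 69.7% in Ripor1, 64.3% in Chst15 and 47.3% in the peak-free Stat5b window. All 4 bound windows are therefore richer in CG than the start of Stat5b that carries no peak.

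The peaks lay mostly inside genes. The share within a gene span was 86.9% (313 of 360, exact 95% interval 83.0 to 90.2%, counting error only), whereas gene spans cover 45.2% of the 2540 Mb of sequence that lies more than 1 kb from a gene end. In all, 317 genes hold a peak, of which 298 are protein-coding, 14 are long non-coding RNA genes and 5 are pseudogenes. The protein-coding hosts have a median length of 51.7 kb, against 17.2 kb for all protein-coding genes. The limits favour long hosts, because a host must extend more than 1 kb beyond the peak on both sides. When gene ends were taken from protein-coding genes alone, 446 peaks qualified and 79.6% lay within a gene span.

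Most of these peaks were nevertheless at transcript starts. Start windows were listed for all chromosomes that carry members except chromosome 18, which leaves 343 of the 360 peaks. Of these 343, 208 (60.6%) lay within 1 kb of a listed start, which is 69.8% of the 298 within a gene span. The 45 between genes could not lie that near a listed start, because the rule kept them over 1 kb from every span end. All 208 lay at a start of their own host gene, and 117 overlapped the start window. Narrow shared peaks at gene ends had a listed start within 1 kb in 84.1% of cases. With a limit of 500 bp in place of 1 kb, 197 peaks were at a start. The peaks thus lie away from the ends of annotated spans, but not, for the most part, away from promoters.

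Nearly all of these starts lay more than 1 kb inside the annotated span. This largely follows from the limits, because the peaks beside the starts lay over 1 kb from every span end. For 200 of the 208 peaks the nearest listed start of the host was more than 1 kb from the outermost 5′ end of the gene, and for 8, among them Gapdh and Arhgap45, it was closer and the peak lay further downstream. Over the 200, the median distance from the start to the outermost 5′ end was 4078 bp, with a maximum of 494448 bp at Foxp1, which encodes a forkhead transcription factor. Of the 200, 103 lay in a gene with 1 listed start and 97 in a gene with more, so the outer transcript was often not among the listed starts. A start within 1 kb of the outermost 5′ end was also listed for 59, and 43 of these 59 had no peak there in either replicate. Over all 200, 167 had no peak at the outermost 5′ end in either replicate and 33 had one. The median distance and the counts of outer ends without a peak also partly follow from the limits. A peak within 1 kb of a span end was not taken, and no neighbouring peaks of a list lay under 2000 bp apart. A start close to the outermost 5′ end thus left little room for a separate peak there. Foxp1, Gapdh and Arhgap45 were chosen after their values were seen.

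Runx1, which encodes a transcription factor required for the emergence of blood stem cells, shows this arrangement over a long distance. Its peak (chr16:92697352-92698751, 1400 bp) lay 23 bp from a listed start that is 128745 bp downstream of the outermost start. Runx1 is known to have a distal promoter and a proximal promoter in a CpG island. At the outermost start, replicate 2 had a peak and replicate 1 had none. Ccnd3, which encodes cyclin D3, had a 1450 bp peak over a start 88416 bp inside its span and no peak at the outermost listed start in either replicate. Cdkn1a, which encodes the cell cycle inhibitor p21, had a 1050 bp peak 233 bp from a start 2790 bp inside its span and likewise no peak at the outermost one. Mcl1, an inhibitor of apoptosis, had a 1450 bp peak over its only listed start, 1777 bp inside the span.

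**Figure D1:**
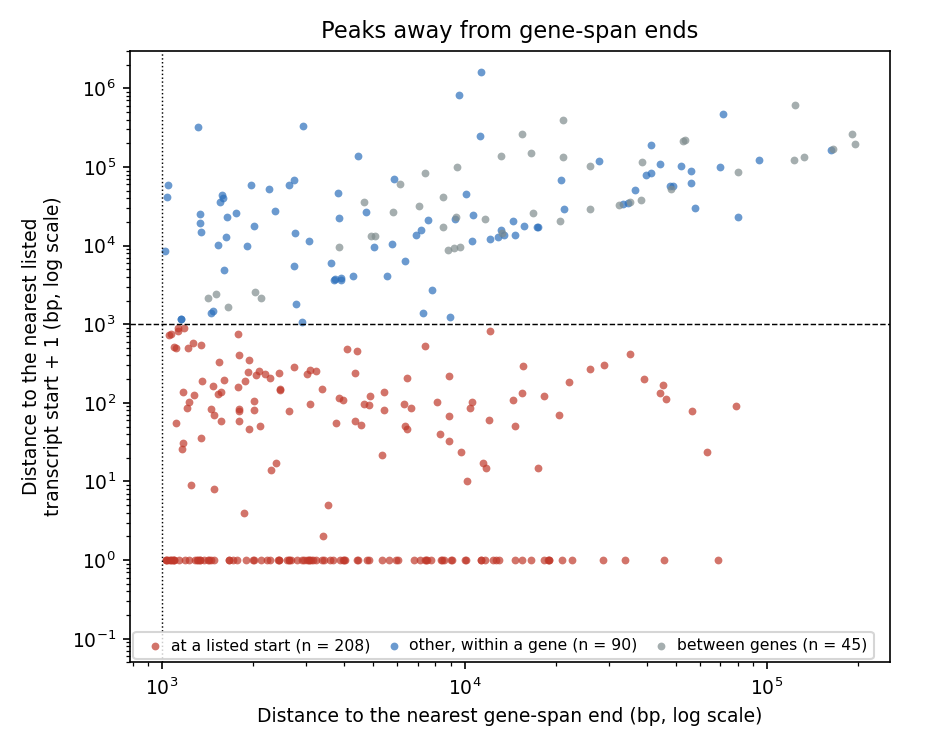
Distance of each peak to the nearest gene-span end (x, bp, log scale) against its distance to the nearest listed transcript start plus 1 (y, bp, log scale), for the 343 peaks on chromosomes with start windows, 1 point per peak. The 208 points below the dashed line lie within 1 kb of a start although all lie beyond the dotted line at 1 kb from a gene-span end.

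At the 208 starts the peaks sat downstream of the start. The median position of the peak centre was 308.5 bp downstream (quartiles 177 and 467 bp), and 190 of 208 centres (91.3%) were downstream. The start itself was covered by 96 peaks, 109 peaks lay wholly downstream and 3 wholly upstream. Narrow shared peaks at gene ends with a listed start within 1 kb had a median of 290.5 bp, with 1796 of 2044 centres downstream. The medians of both sets differed by less than the 50 bp grid of the peak positions.

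**Figure D2:**
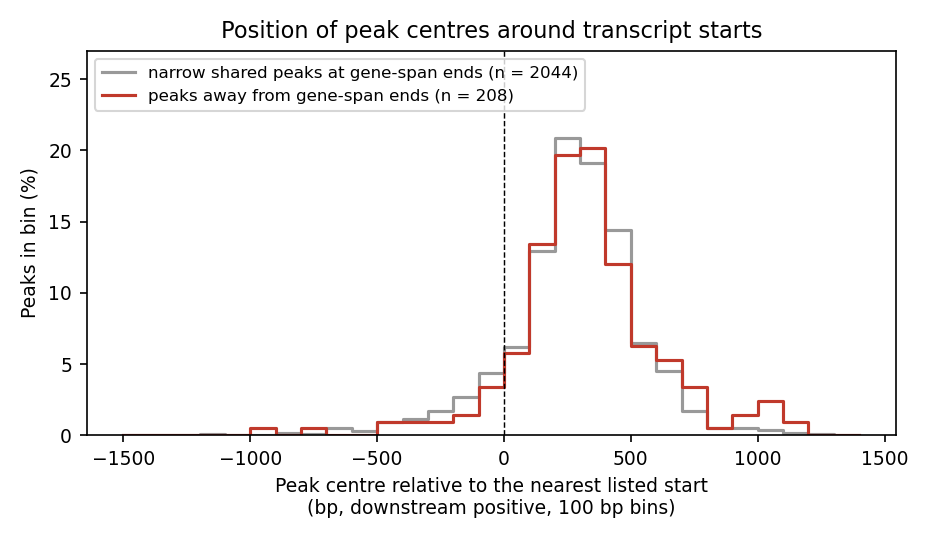
Position of peak centres relative to the nearest listed transcript start (x, bp, downstream positive, 100 bp bins) as a share of peaks (y, %), for 208 peaks away from gene-span ends (red) and 2044 narrow shared peaks at gene-span ends (grey). Both distributions are highest between 200 and 400 bp downstream of the start.

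The bound starts were rich in CpG. CpG content was expressed as the observed number of CG dinucleotides over that expected from the C and G content of the 300-base window. Its median was 0.85 at the 208 starts (quartiles 0.71 and 0.98), with a median of 27 CG dinucleotides, and 188 of 208 starts (90.4%) reached 0.6. The median was 0.90 at starts near narrow gene-end peaks, 0.88 at starts near wide shared peaks and 0.38 over all 32851 listed windows, of which 35.8% reached 0.6. In these medians the starts inside genes were close to other bound starts and above the whole set in CpG content.

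In 61 host genes a bound start could be set against another listed start of the same gene with no peak within 1 kb in either replicate. Where a gene had several such starts, the one farthest from the bound start was taken. Here too, peaks of a list lay at least 2000 bp apart, so a start close to the bound one had little room for its own peak. The median CpG ratio was 0.85 at the bound starts and 0.31 at the peak-free starts, with median counts of 28 and 5 CG dinucleotides. The ratio was higher at the bound start in 54 of the 61 genes. Cdkn1a, Foxp1, Prkar1a and Nt5c2 serve as examples chosen after their values were seen. In Cdkn1a it was 0.79 at the bound and 0.09 at the peak-free start, and in Foxp1 it was 1.11 and 0.28. Prkar1a, a regulatory subunit of protein kinase A, had 0.94 and 0.17. The reverse order was found in 7 genes: Arhgef7, Dnajc6, Mgat1, Nt5c2, Sema4b, Septin9 and Urgcp. In Nt5c2, a nucleotidase gene, the bound start had 0.98 and the peak-free start 1.18. The median distance between the paired starts was 11718 bp.

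**Figure D3:**
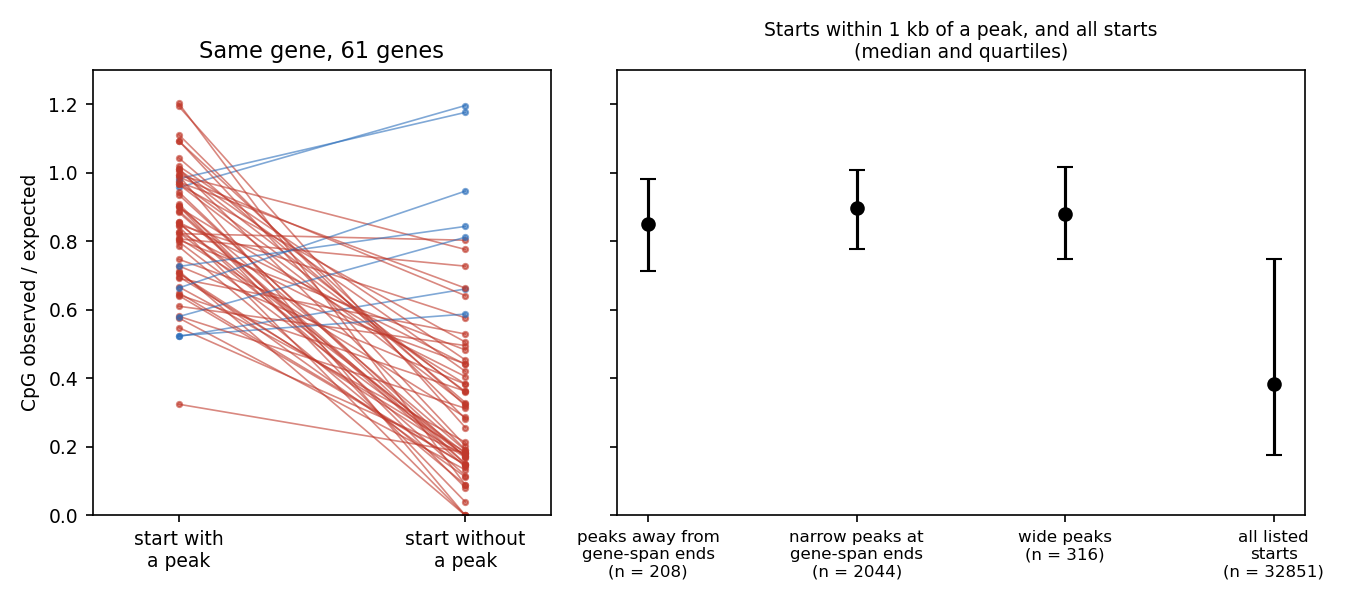
CpG observed over expected (y) in 300-base windows around transcript starts. Left, 61 genes with a bound and a peak-free start, 1 line per gene, red where the bound start is higher (54 genes) and blue where it is lower (7 genes). Right, median and quartiles at starts near 3 classes of shared peak and over all 32851 listed starts.

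Motifs of blood transcription factors were searched on both strands of the start windows, as letters only, and shares are those of windows with at least 1 match. The RUNX letters TGTGGT were found in 8.65% of the 208 windows and in 16.8% of all windows. For the ETS letters AGGAAG the shares were 30.3% and 35.4%, and for the GATA letters AGATAA they were 2.40% and 11.2%. TTGCNNAA (C/EBP) was in 6.73% and 10.8%, TGANTCA (AP-1) in 2.40% and 7.81%, and HOX-MEIS letters (TGATTNAT) in 0% and 3.22%. Every one of the 6 motifs was less frequent in the bound windows than in all windows, which differ in C+G content (medians of 67.0% and 52.7%). The part of base composition in these shares was not tested. Narrow gene-end peaks had shares of 8.86% for RUNX, 30.6% for ETS and 3.47% for GATA.

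The other 90 peaks within genes had no listed start within 1 kb. Their median distance to the nearest listed start of any gene was 22575 bp. Starts were listed for 27025 of 49943 RefSeq genes, and hosts such as Spi1 had none. In such hosts the lack of a listed start does not show that the peak lay away from a promoter. How many of the 90 this concerns was not counted. Several of the 90 peaks lay in genes of blood cell regulators. Meis1, a homeobox cofactor of HOXA9 in leukaemia, had an 850 bp peak (chr11:19009702-19010551) that was 8418 bp from the listed start of Meis1 and 2754 bp from that of another gene. Spi1, which encodes the myeloid master regulator PU.1, had a 500 bp peak (chr2:91096852-91097351) 14478 bp inside the nearest gene-span end. No start of Spi1 itself was listed, and the nearest listed start, 20793 bp away, lay outside the Spi1 span. The distance of this peak from the Spi1 promoter is therefore not known here. Tal1, a regulator of blood stem and erythroid cells, had a 750 bp peak (chr4:115063002-115063751) 5191 bp from the nearest listed start of Tal1 and 3692 bp from that of another gene. Dock2, a Rac activator of blood cells, had a 300 bp peak (chr11:34681802-34682101) 101804 bp from the listed start of Dock2 and 12940 bp from that of another gene. Rere, which encodes a transcriptional corepressor, had 2 peaks, the nearer of them 89936 bp from its listed start.

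The replicates overlapped less closely at these 90 peaks. The median width was 500 bp in replicate 1 and 850 bp in replicate 2, and 31 of 90 (34.4%) overlapped a replicate 2 peak of 1500 bp or more. The overlap covered at least 50% of both peaks in 48 of 90 (53.3%). At the 208 starts the medians were 600 and 800 bp, 28 (13.5%) overlapped a replicate 2 peak of 1500 bp or more, and 166 (79.8%) shared at least 50% of both peaks. Both peaks in Rnf220, a ubiquitin ligase gene, were 1000 bp wide and fell in the same replicate 2 peak of 13000 bp. Both peaks in Pxn, the gene of the adhesion protein paxillin, fell in a replicate 2 peak of 3100 bp. The Meis1 peak overlapped a replicate 2 peak of 2950 bp. The 90 also include peaks in families of near-identical genes, described below, where positions are uncertain. Peaks in Gm7592 overlapped replicate 2 peaks of 7050, 5700 and 250 bp, among others, and a peak in Gm30417 overlapped 1 of 7400 bp. The part of such families in the shares above was not counted. Among all 360 peaks, replicate 2 was wider at 227, narrower at 83 and equal at 50, and 205 (56.9%) were covered whole by the replicate 2 peak. Thus 70 of the 360 peaks were narrow in replicate 1 alone.

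**Figure D4:**
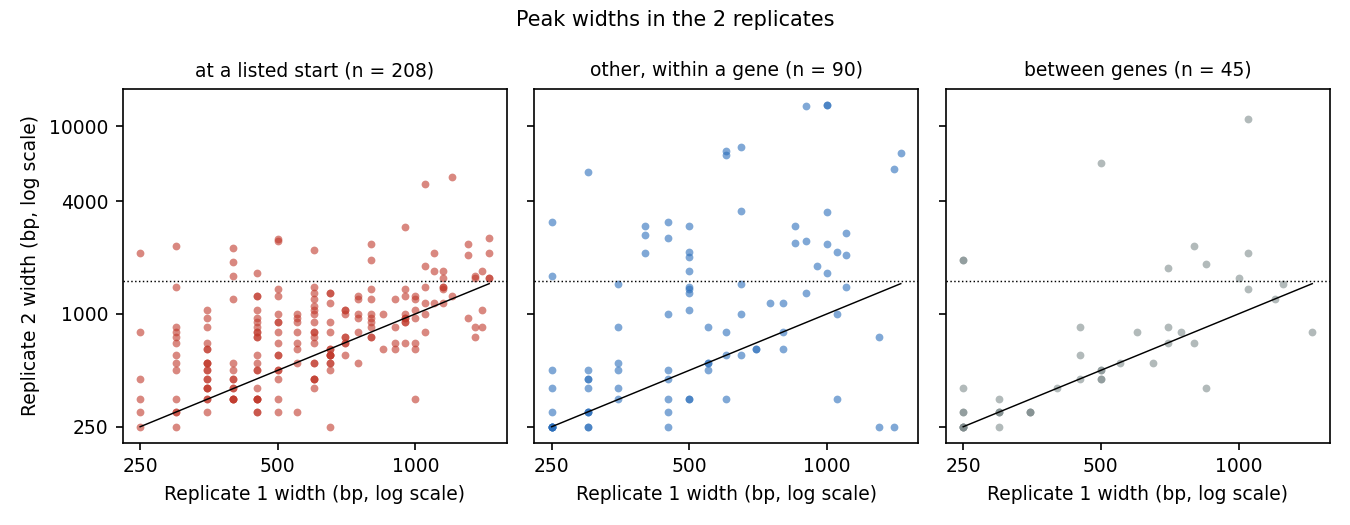
Width of each peak in replicate 1 (x, bp, log scale) and of the replicate 2 peak that overlaps it (y, bp, log scale), by position, 1 point per peak. The solid line marks equal widths and the dotted line 1500 bp, which 28 of 208 peaks at a listed start and 31 of 90 other peaks within genes reach in replicate 2.

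The limits of the definition passed through a continuum. At the limit of width, 7 peaks away from gene ends were 1450 bp wide, 7 were 1500 bp and 3 were 1550 bp. The nearest to the limit of distance inside it were peaks at Mid1-ps1 (1021 bp), Tifa (1027 bp) and Clk3 (1034 bp), and the nearest outside it were at Cep120 (985 bp), Hells (990 bp) and Mid1 (997 bp). The smallest peak in either list was 250 bp wide, all widths were multiples of 50 bp, and no gap between neighbouring peaks was under 2000 bp.

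The 47 peaks between genes were narrower than those within, with medians of 450 bp in replicate 1 and 500 bp in replicate 2. Their widths were equal in both replicates for 16 of 47, against 34 of 313 within genes. The median distance to a gene end was 13330 bp, and the farthest, on chromosome 6 (chr6:103314552-103314801), was 195783 bp away. For 18 of the 47 a gene tested for expression lay within 50 kb, and for 29 none did. A 500 bp peak (chr6:49217502-49218001) lay 2033 bp from Igf2bp3, which encodes an oncofetal RNA-binding protein. It was 2548 bp from the nearest listed start and 2051 bp from the next replicate 1 peak, with 2 other shared peaks within 50 kb. An 800 bp peak (chr19:61263802-61264601) had Csf2ra, the gene of the GM-CSF receptor alpha chain, as its nearest tested gene at 35341 bp.

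Most peaks stood alone. Of the 360, 247 (68.6%) had no other shared peak within 50 kb, against 68.5% of all replicate 1 peaks, and 331 had no other member within 50 kb. The other 29 included peaks in genes with 2 members, such as Ldb1 and Pxn, and a peak in Gpx4, which encodes an antioxidant enzyme, with 2 other members within 50 kb. Several of the most crowded peaks were in families of near-identical genes, where reads from copies cannot be told apart. On chromosome 5, 3 peaks near the Speer4 genes (chr5:15630452-15631051, chr5:15646002-15646501 and chr5:15671202-15672251) had up to 10 other shared peaks within 50 kb. Gm7592 on chromosome 1 held 4 peaks, and 3 peaks lay on the Y chromosome near Mid1-ps1. Positions in these copies are uncertain. Whether reads map to a single place at the other peaks, among them the lone peaks between genes, was not examined.

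RNA was compared in the 284 host genes that passed the filter on low counts, of 299 in the deposited table and 317 in all. Library totals ranged from 12397486 to 34463851 estimated counts, the fresh libraries being the shallowest. Kit, the receptor used to isolate the cells, was at 41.0 and 29.0 CPM (estimated counts scaled to library size) in MOZ-TIF2, 138 and 181 in fresh and 4269 and 4003 in differentiated cells. Marker genes of other cells moved with the groups. Summed levels of 10 mast cell markers were 39.8 to 54.8 CPM in MOZ-TIF2, 334 to 365 in fresh and 58401 to 86853 in differentiated libraries. For 10 erythroid markers they were 333 to 429, 5176 to 5716 and 126 to 164 CPM, and for 10 B lymphoid markers 6.11 to 6.73, 726 to 774 and 3.68 to 11.7 CPM. Neutrophil markers summed to 13469 to 15278 CPM in MOZ-TIF2, 27437 to 28308 in fresh and 62.4 to 298 in differentiated libraries. Monocyte and macrophage markers summed to 586 to 633, 1293 to 1371 and 562 to 1043 CPM, and megakaryocyte markers to 17.1 to 26.5, 343 to 488 and 2526 to 2714 CPM. Defining markers were at 0 in MOZ-TIF2 for 3 to 4 of the B lymphoid and 5 to 6 of the erythroid genes. The part of these markers in the results below was not tested, and in bulk RNA fewer cells of a type and less RNA per cell cannot be told apart.

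Host genes were expressed well above the typical gene. Their median in MOZ-TIF2 cells was 81.8 CPM, against 16.9 CPM over all 15224 tested genes, and 274 of 284 (96.5%) reached 10 CPM, against 57.8%. Host genes had a median of 55.4 CPM in fresh and 84.8 CPM in differentiated cells. Genes with a narrow peak at a gene end had medians of 69.5, 57.3 and 64.1 CPM in MOZ-TIF2, fresh and differentiated cells. CPM is scaled to library size and not to gene length.

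Against fresh cells, 76 of the 284 host genes were higher in MOZ-TIF2 (26.8%, background 11.3% of all genes) and 12 were lower (4.23%, background 12.4%), by edgeR's quasi-likelihood test at an adjusted p under 0.05. The median log2 difference was 0.39 for host genes and 0.00 for all genes. Genes with a narrow peak at a gene end were higher in 16.2% and lower in 4.70%. Host genes are long and well expressed, so genes of at least 10 CPM and 20 kb were also set side by side: 31.0% of 226 such host genes were higher and 3.10% lower, against 19.1% and 9.53% of 5122 genes. The split was alike in hosts with a peak at a listed start (54 higher and 8 lower of 206) and in the other hosts (22 and 4 of 78). The call counts rest on both fresh libraries: without fresh replicate 1, 5 host genes were called, and without fresh replicate 2, 8 were called. These were 4 higher and 1 lower, and 6 higher and 2 lower, too few to compare with the background.

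Differentiated cells, which carry no MOZ-TIF2, also differed from fresh cells in these genes. Of the 284, 106 were higher (37.3%, background 21%) and 36 lower (12.7%, background 19.7%) in differentiated than in fresh cells, with a median log2 difference of 0.50 against -0.03 over all genes. In either direction 142 were called, against a background of 40.7%. Without fresh replicate 1 or 2 these calls fell from 142 to 29 and 44, and without differentiated replicate 1 to 88. Against differentiated cells, 50 host genes were higher in MOZ-TIF2 (17.6%, background 13.3%) and 50 lower (17.6%, background 16.2%), with a median of 0.08 against 0.03. Without differentiated replicate 2 the calls fell from 100 to 66. The 3 comparisons share libraries. Among genes of at least 10 CPM and 20 kb, 41.2% of 226 hosts were higher and 12.4% lower in differentiated than in fresh cells. Over 5122 such genes the shares were 34.3% and 15.0%, closer to the hosts than those of all genes. For MOZ-TIF2 against differentiated cells they were 17.7% and 19.5% of hosts, against 14.9% and 21.5%. Host genes were thus more often higher in both cultured groups than in fresh cells. For differentiated cells the excess was smaller beside long, well expressed genes. MOZ-TIF2 and differentiated cells split evenly, near the background.

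Among genes with a peak at a start inside the span, Enah had the highest difference from fresh cells. It was at 93.5 and 96.3 CPM in MOZ-TIF2, 1.48 and 1.22 in fresh and 547 and 552 in differentiated cells. The groups did not overlap, and MOZ-TIF2 lay between the other groups. It rose by 6.14 ± 0.26 (log2, SE) against fresh (edgeR adjusted p = 0.00059) and was lower than in differentiated cells by 2.53 ± 0.21 on the log2 scale (-2.53, adjusted p = 0.00082). Hif1a, the oxygen-regulated transcription factor, was at 236 and 438 CPM in MOZ-TIF2, 30.2 and 48.2 in fresh and 260 and 299 in differentiated cells. Both cultured groups lay above fresh cells and overlapped each other. Hif1a rose by 3.10 ± 0.40 against fresh (edgeR adjusted p = 0.0062), with adjusted p of 0.077 and 0.053 without fresh replicate 1 or 2.

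Ak4, a mitochondrial adenylate kinase gene, was at 93.0 and 98.9 CPM in MOZ-TIF2, 5.09 and 6.29 in fresh, and 0.287 and 6.78 in differentiated cells. It was high in MOZ-TIF2 alone, and the differentiated libraries disagreed widely. It rose by 4.07 ± 1.10 against fresh (edgeR adjusted p = 0.044) and by 4.73 ± 1.13 against differentiated (adjusted p = 0.026). The call against fresh was lost without any 1 of the 4 libraries (adjusted p 0.072 to 0.28), and that against differentiated without MOZ-TIF2 replicate 1 (adjusted p = 0.050). Dnajc6, which encodes an auxilin of clathrin uncoating, was at 87.9 and 74.4 CPM in MOZ-TIF2, 24.0 and 38.2 in fresh and 4.73 and 2.52 in differentiated cells. The 3 groups did not overlap, and it rose by 4.49 ± 0.42 against differentiated (edgeR adjusted p = 0.0012).

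Cdkn1a was at 60.2 and 168 CPM in MOZ-TIF2, 20.7 and 12.8 in fresh, and 349 and 203 in differentiated cells. It rose by 2.77 ± 0.58 against fresh (edgeR adjusted p = 0.022), a call lost without either fresh library (adjusted p 0.13 and 0.15). Pik3cd, a phosphoinositide 3-kinase subunit of leukocytes, was at 208 and 289, 108 and 111, and 872 and 761 CPM in the same order. MOZ-TIF2 again lay between fresh and differentiated cells, at 1.18 ± 0.25 above fresh (edgeR adjusted p = 0.024; lost without MOZ-TIF2 replicate 2 or either fresh library, 0.057 to 0.20) and 1.71 ± 0.26 below differentiated (-1.71, adjusted p = 0.0059).

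Runx1 was at 61.4 and 78.6 CPM in MOZ-TIF2, 81.4 and 74.8 in fresh and 546 and 517 in differentiated cells. MOZ-TIF2 and fresh cells overlapped, and both were far below differentiated cells, with a log2 difference of -2.93 ± 0.23 between MOZ-TIF2 and differentiated cells (edgeR adjusted p = 0.00075). Chst15 had the same order, with 14.1 and 31.5, 28.8 and 35.4, and 230 and 268 CPM (-3.45 ± 0.42 against differentiated, edgeR adjusted p = 0.0031). Stat5b was at 62.7 and 108, 120 and 141, and 267 and 237 CPM, lower than in differentiated cells by 1.56 ± 0.31 (-1.56, edgeR adjusted p = 0.014; 0.055 without differentiated replicate 1).

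Fth1, the ferritin heavy chain that stores iron, fell in MOZ-TIF2 against both other groups. It was at 583 and 394 CPM in MOZ-TIF2, 1796 and 1498 in fresh and 3407 and 3846 in differentiated cells, with log2 differences of -1.75 ± 0.31 (edgeR adjusted p = 0.015) and -2.89 ± 0.33 (adjusted p = 0.0023). The first call was lost without either fresh library (adjusted p 0.14 and 0.093). Ripor1 was at 44.8 and 43.2 CPM in MOZ-TIF2, 150 and 145 in fresh and 108 and 132 in differentiated cells. It fell by 1.75 ± 0.20 against fresh (-1.75, edgeR adjusted p = 0.0044; 0.057 without fresh replicate 1). Ldb1, a bridging cofactor of GATA and TAL1 complexes with 2 bound internal starts, was at 109 and 61.5 CPM in MOZ-TIF2, 219 and 184 in fresh and 117 and 104 in differentiated cells. It fell by 1.24 ± 0.31 against fresh (-1.24, edgeR adjusted p = 0.036; lost without MOZ-TIF2 replicate 2 or either fresh library, 0.072 to 0.22).

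Tifa, an adaptor of innate immune signalling, was at 14.9 and 20.3 CPM in MOZ-TIF2, 50.5 and 77.2 in fresh and 5.11 and 4.36 in differentiated cells. MOZ-TIF2 lay between the other groups, below fresh (-1.86 ± 0.30, edgeR adjusted p = 0.011; 0.053 and 0.096 without fresh replicate 1 or 2) and above differentiated cells (1.90 ± 0.31, adjusted p = 0.0079). Both directions appear among these genes because the largest rises and the largest falls were picked. Over all 206 tested hosts with a peak at a listed start, 54 were higher and 8 lower than in fresh cells (edgeR, background 11.3% and 12.4%). Against differentiated cells 32 were higher and 39 lower (background 13.3% and 16.2%).

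**Figure D5:**
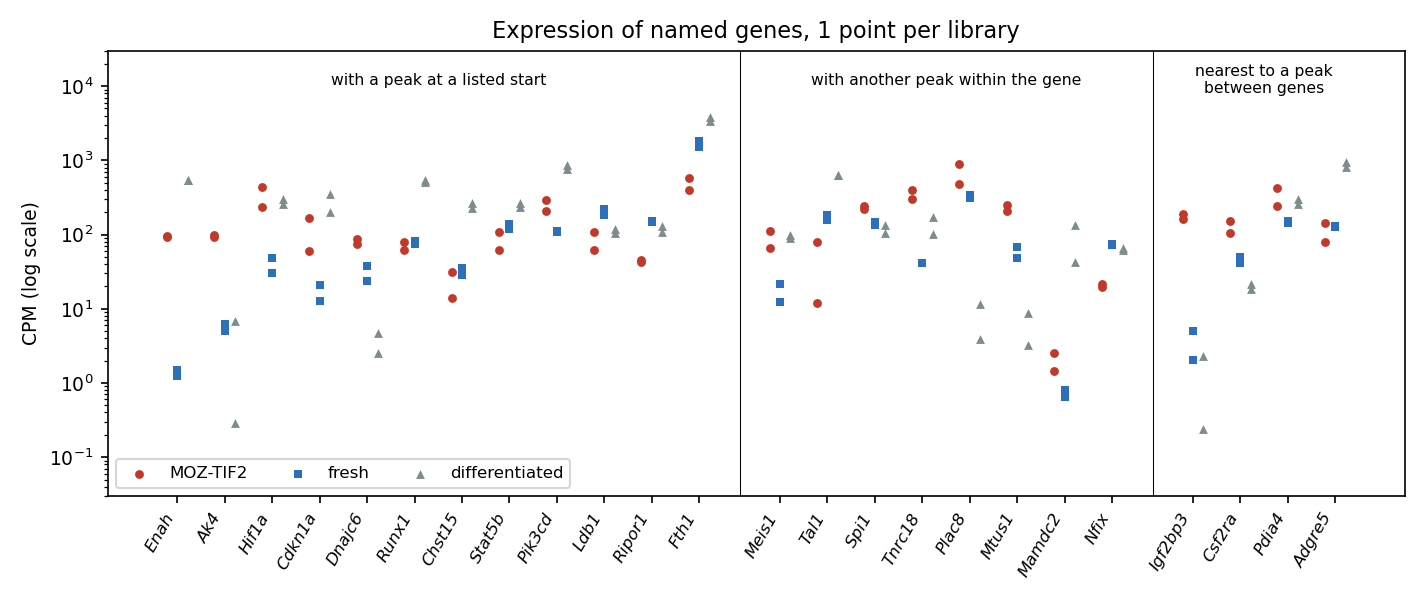
CPM (y, log scale) of 24 named genes in 2 MOZ-TIF2, 2 fresh and 2 differentiated libraries, 1 point per library, grouped by the position of the peak. Enah, Hif1a and Cdkn1a are lowest in fresh cells, Runx1 and Chst15 are highest in differentiated cells, and Igf2bp3 and Plac8 are highest in MOZ-TIF2.

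Genes whose peak had no listed start within 1 kb, or that lie on the chromosome without start windows, included Meis1, at 111 and 66.8 CPM in MOZ-TIF2, 21.5 and 12.5 in fresh, and 100 and 88.7 in differentiated cells. Both cultured groups lay above fresh cells and overlapped each other, and Meis1 rose by 2.39 ± 0.37 against fresh (edgeR adjusted p = 0.010; 0.059 and 0.080 without fresh replicate 1 or 2). Plac8, a gene of myeloid progenitors, was at 895 and 486, 310 and 345, and 3.96 and 11.6 CPM, and was 6.46 ± 0.67 above differentiated cells (edgeR adjusted p = 0.0017). Mtus1, which encodes a microtubule-associated protein, was at 249 and 205, 47.9 and 67.7, and 3.25 and 8.71 CPM (5.24 ± 0.54 against differentiated, edgeR adjusted p = 0.0017). In both genes MOZ-TIF2 was highest and differentiated cells lowest.

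Tnrc18 was at 394 and 297 CPM in MOZ-TIF2, 40.8 and 40.9 in fresh and 173 and 101 in differentiated cells. It rose by 3.08 ± 0.34 against fresh (edgeR adjusted p = 0.0037; 0.063 and 0.058 without fresh replicate 1 or 2). Nfix, a nuclear factor I gene, had 19.8 and 21.3, 75.5 and 73.0, and 62.3 and 65.2 CPM, and fell against both groups (-1.85 ± 0.18 and -1.63 ± 0.18, edgeR adjusted p = 0.0025 and 0.0019). Mamdc2, which encodes an extracellular matrix protein, was near 0 outside differentiated cells, with 1.45 and 2.57, 0.811 and 0.640, and 42.8 and 133 CPM. It was -5.45 ± 0.66 against differentiated (edgeR adjusted p = 0.0030).

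Tal1 was at 79.3 and 12.1 CPM in MOZ-TIF2, 156 and 185 in fresh and 639 and 633 in differentiated cells. The MOZ-TIF2 libraries differed widely from each other, and both were below the other groups, by -3.80 ± 0.84 against differentiated (edgeR adjusted p = 0.020; 0.060 and 0.056 without differentiated replicate 1 or 2). Spi1 was at 223 and 240, 150 and 133, and 134 and 105 CPM. The MOZ-TIF2 libraries were highest, at 0.71 ± 0.22 against fresh (edgeR adjusted p = 0.061) and 0.95 ± 0.22 against differentiated (adjusted p = 0.022; 0.087 without differentiated replicate 2 and 0.051 without MOZ-TIF2 replicate 2). Tcf4, which encodes a basic helix-loop-helix factor of plasmacytoid dendritic cells, lies on a chromosome with no start windows and fell against fresh by 3.51 ± 0.43 (-3.51, edgeR adjusted p = 0.0051; 0.053 and 0.054 without fresh replicate 1 or 2). It was at 8.28 and 3.88, 65.5 and 72.7, and 6.11 and 8.57 CPM.

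Of the 26 named genes called against fresh cells, Enah, Nfix and Rnf125, a ubiquitin ligase gene, kept their call without each of the 4 libraries in turn. Rnf125 was at 57.5 and 59.2 CPM in MOZ-TIF2, 3.02 and 7.39 in fresh and 35.5 and 28.1 in differentiated cells, a rise of 3.48 ± 0.44 against fresh (edgeR adjusted p = 0.0058). Of the 27 called against differentiated cells, 19 kept their call in the same way.

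The tested genes nearest to peaks between genes were fewer and mostly low. Their medians were 7.59 CPM in MOZ-TIF2, 2.80 in fresh and 3.23 in differentiated cells, and 7 of 18 were under 1 CPM in fresh cells. Counts over so few genes are too small to compare with the background. Of 18, 6 were higher and 0 lower in MOZ-TIF2 than in fresh cells (edgeR, background 11.3% and 12.4%). Against differentiated cells 3 were higher and 5 lower (background 13.3% and 16.2%), and 5 were higher and 2 lower in differentiated than in fresh cells (background 21% and 19.7%). Igf2bp3 was at 188 and 160 CPM in MOZ-TIF2, 2.07 and 5.01 in fresh and 0.239 and 2.32 in differentiated cells. It was high in MOZ-TIF2 alone, by 5.60 ± 0.91 against fresh (edgeR adjusted p = 0.011; 0.12 and 0.081 without fresh replicate 1 or 2, with a log2 difference of 5.09 and 6.39) and by 7.02 ± 0.97 against differentiated (adjusted p = 0.0045). Csf2ra was at 104 and 152, 40.9 and 49.8, and 21.6 and 18.7 CPM, a rise of 2.67 ± 0.27 against differentiated (edgeR adjusted p = 0.0015). Adgre5, an adhesion receptor gene of leukocytes, was at 78.8 and 145, 128 and 129, and 819 and 965 CPM (-2.99 ± 0.35 against differentiated, edgeR adjusted p = 0.0027). A nearest gene need not be the gene a distal site acts on.

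Lists of regulators held 4 peak-bearing genes at most. Over all 15224 tested genes, 284 hold a peak, and every list below except the retinal determination network held a larger share. These counts are small, no test was made, and gene length and level were not matched. For expression, 11.3% of all tested genes were higher and 12.4% lower in MOZ-TIF2 than in fresh cells. The counts of higher and lower genes in each list stand beside those shares. Of 30 stem and progenitor regulators, 4 hold a peak: Meis1, Runx1, Tal1 and Tcf4. In that list 4 genes were higher and 12 lower in MOZ-TIF2 than in fresh cells (median log2 difference -1.03, against 0.00 for all genes). Of 30 myeloid regulators, Spi1 and Stat5b hold a peak, and 5 of the 30 were higher and 12 lower (median -0.43). Dock2 and Pik3cd were the 2 holders among 30 receptor and signalling genes, of which 5 were higher and 5 lower (median 0.19). Jmjd1c and Hdac4 were among the holders in a list of 30 chromatin genes, and 10 of the 30 were higher and 4 lower (median 0.81). Of 20 cell cycle and survival genes, Ccnd3, Cdkn1a and Mcl1 hold a peak, and 2 were higher and 4 lower (median -0.53). None of the 13 genes of the retinal determination network, which includes Eya1 and Dach1, holds a peak of this kind, and 2 of the 9 tested were higher and 3 lower (median 0.48).

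The host genes were also read in single MOZ-TIF2 cells, which like the bound cells had been replated in methylcellulose. Conditions were DMSO for 1 day and 5 µM benzarone for 1 or 3 days, with 1 sample per condition, so no test was made. Between 826 and 883 cells per condition were listed, with median totals of 42565 to 44762 molecules per cell. Among the 2538 cells, 3 barcode sequences occurred in more than 1 condition, and no doublet caller was run. Of the 284 genes, 279 were listed, with a median of 23.6 CPM in DMSO cells against 18.9 CPM over all listed genes. Igf2bp3 had 4232 molecules (110 CPM, exact Poisson 95% interval 107 to 113, counting error only) in DMSO cells. Enah had 1330 molecules (34.5 CPM, 32.7 to 36.4) and Meis1 had 1206 (31.3 CPM, 29.6 to 33.1) in the same cells. These 3 genes were thus detected in cells replated like those of the immunoprecipitation.

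At day 1, 0 of 279 host genes with at least 100 molecules were 2-fold or more higher with benzarone (background 0.255%) and 0 were 2-fold or more lower (background 0.117%). Nfix, with 340 molecules in DMSO and 224 in benzarone cells, had the lowest log2 ratio of CPM at -0.56. Tifa, with 431 and 595, had a ratio of 0.51. No DMSO cells of day 3 were analysed here. Fth1 was at 3663 CPM in DMSO cells at day 1, 3797 in benzarone cells at day 1 and 6653 at day 3. Cdkn1a was at 157, 190 and 388 CPM in the same order, and Meis1 at 31.3, 31.7 and 23.6 CPM. Day and treatment cannot be told apart in the day 3 values.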

How the data were processed

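Ty1 peaks were deposited by the authors as start and end positions alone (unit: other), with no height or score. Bowtie2 and mm10 are named in the submitters' processing notes, and the peak caller is not given in the sources used here. Printed starts are the deposited starts plus 1. Gene spans and start windows came from RefSeq for GRCm38, and no genome was used, so motifs were searched in start windows only. Bulk RNA values are estimated counts deposited by the authors, with Salmon 0.13.0 per the submitters' processing notes. They were rounded, filtered with filterByExpr, scaled by TMM and tested over all 6 libraries with edgeR 4.0.16 (R 4.3.3), with Benjamini-Hochberg adjustment over 15224 genes. Standard errors are the log2 difference over the root of F. Single-cell values are raw counts deposited by the authors (Cell Ranger 3.0.0 per the submitters' processing notes), summed per condition. The edgeR script was tested on simulated data. Named genes were the tested hosts with most peaks, the largest called rises and falls among hosts (6 each) and among genes nearest to peaks between genes (4 each) in MOZ-TIF2 against either other group, with at least 10 CPM and no overlap, and list members that hold or neighbour a peak. Members and lists were chosen with earlier results of these data known. Alternatives were RLE scaling, DESeq2 1.42.0, no filter, a replicate block, only the groups compared, each library left out, and other peak limits. A single-cell sample that holds both treatments of day 5 was not analysed here.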

Additional observations from a re-analysis of the deposited data

How the results depend on the processing

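The number of peaks was 264 with an overlap of 50% of both peaks, 298 under 1000 bp, 265 beyond 2 kb, 446 with protein-coding genes alone, 298 from replicate 2, and 406 without Ty1 replicate 2 (chosen after seeing the data). Coding genes alone gave 79.6% within a gene span. Host genes called against fresh were 88, and 51 with the replicate block, 5 to 85 without each library in turn. Against differentiated cells they were 100, and 63 with only the groups compared, 66 to 101 without each library, and 66 with the 50% overlap, which leaves 212 hosts. Between differentiated and fresh cells they were 142, and 29 to 118 without each library. The lone library left is assumed to vary like the other groups. Replicate numbers were not shown to pair the libraries (correlations of deviations -0.076, -0.051 and -0.008, with 2 libraries a group). The block left 14 of 76 called results of named genes without a call, DESeq2 0 and RLE scaling 2, and 34 of 76 kept it under every alternative run. No direction of a called result reversed. Peak lists without scores and fresh libraries of low depth limit precision.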
